A study of Mus musculus with 22 samples.

Results

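Markers of liver tumours and of ductal progenitor cells were followed in mouse livers that lack Trim24, a tripartite motif co-regulator of nuclear receptors whose loss is known to lead to liver tumours in ageing mice. The set held 9 genes, taken by name: the oncofetal and tumour markers Afp, H19, Gpc3 and Ly6d, and the ductal and progenitor markers Sox9, Spp1, Epcam, Krt19 and Krt7. The array annotation listed a probe set for 8 of them, with 15 probe sets in all, out of 18195 genes and 45101 probe sets tested. Spp1 had none listed and is named only.

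Each of 22 mice gave 1 liver and 1 one-colour Affymetrix array. The 5-week-old animals comprised 4 wild-type mice (WT), 4 that were Trim24-/- and 4 that were Trim24-/- Rara+/-, with 1 disrupted copy of Rara, the gene of retinoic acid receptor alpha. At 14 weeks there were 5 WT and 5 Trim24-/- mice. The Trim24 allele was disrupted in the germ line, so all cells of the mutant livers carried it, and the colonies were kept on a hybrid background of C57BL/6 and 129/Sv. No Rara+/- mice with intact Trim24 were in the series, so an effect of Rara dose alone cannot be told apart from its effect in the absence of Trim24. Whole liver RNA was measured, in which fewer cells of a type and less RNA per cell cannot be told apart.

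Afp encodes alpha-fetoprotein, the main serum protein of the fetal liver, which is silenced in hepatocytes after birth and returns in many liver tumours and in regenerating liver. H19 is an imprinted long non-coding RNA that follows the same course of fetal expression and postnatal silencing, and its transcript is the precursor of the microRNA miR-675. Sox9, Epcam, Krt19 and Krt7 mark the bile duct epithelium and the ductal progenitor cells that expand in injured liver, and hepatocytes of a healthy adult liver express little of them.

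The Afp promoter is shown because Afp was the only member whose Trim24-/- and WT animals were separate at both ages. It runs from 250 bases before to 50 bases after the start site on the plus strand (chr5:90490464-90490763, RefSeq, GRCm38.p6). The capitals mark the letters GTTAAT, a half-site of the hepatocyte factor HNF1, and TATAAA, the letters of a TATA box. The latter are bases 244 to 249 of the window, just before the RefSeq start site. Where transcription starts was not tested. Only exact matches were marked, so looser HNF1 matches such as gttactagttaac stay in lower case.

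Afp promoter: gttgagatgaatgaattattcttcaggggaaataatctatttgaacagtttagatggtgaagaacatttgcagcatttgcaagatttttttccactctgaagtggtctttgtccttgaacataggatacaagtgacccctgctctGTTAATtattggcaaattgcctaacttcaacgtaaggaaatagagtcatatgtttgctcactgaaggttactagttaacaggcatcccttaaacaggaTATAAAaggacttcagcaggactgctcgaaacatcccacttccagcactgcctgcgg

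Searched on both strands, GTTAAT occurred in 7.1% of 32851 promoter windows of the same length and TATAAA in 13.6%. The exact letters AGGTCA, a form of the nuclear receptor half-site (16.3% of windows), were not found in these 300 bases. Nor was TTCNNNGAA, the interferon-gamma activated sequence (8.3%). Other spellings of these sites, such as GGGTCA, were not searched, so their absence is not shown.

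The probe set for H19 is also listed for Mir675, which lies inside H19 in RefSeq, so its signal is that of the shared transcript and not of the mature microRNAs. Those are shown because they are what that transcript is cut into, with the seed (bases 2 to 8) in capitals. They lie on the minus strand at chr7:142577112-142577133 and chr7:142577078-142577099 (GRCm38.p6), and their seeds differ.

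mmu-miR-675-5p: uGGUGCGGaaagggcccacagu
mmu-miR-675-3p: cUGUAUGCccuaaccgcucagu

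All members were dim. Signals are in linear array units, and 49.9% to 54.4% of probe sets read below 16, the value added before taking logs, on the 5-week arrays and 37.8% to 45.3% on the 14-week arrays. The means of the 8 measured members on the log2(signal + 16) scale lay between 4.83 (Krt7) and 5.77 (H19), the 31.7th and 51st percentile of all genes. The hepatocyte marker list (8 genes measured) had means between 12.59 and 13.31 on the same scale in every liver. Differences and folds below are on the log2(signal + 16) scale, which understates the change of dim genes, and a gene was called where limma's adjusted p over all 18195 genes was below 0.05. Trim24-/- Rara+/- animals 54, 66 and 82 correlated at 0.987 to 0.992 across 8334 genes and Trim24-/- animals 1 and 8 at 0.988, against 0.948 to 0.982 for the other pairs within groups. At 5 weeks Trim24 itself had a mean signal of 363 ± 84.7 (SD, n = 4) without and 317 ± 111 with an intact gene, so its probe set did not check the genotype labels. Rara was dim, with a signal of 18.2 ± 9.97 (SD, n = 4) where 1 copy was disrupted, 13.7 ± 8.45 where Trim24 alone was, and 12.3 ± 11.7 in WT at 5 weeks, and so did not show the loss of 1 copy (0.22 ± 0.31 against Trim24-/-, limma, adjusted p = 0.86). The labels do not give sex. Xist read at least 948 on the 12 arrays at 5 weeks and at most 44.5 on the 10 at 14 weeks, and the Y-linked Eif2s3y the reverse, so genotypes at each age were compared among animals of 1 pattern, and comparisons across ages were not.

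Afp signal was higher in every Trim24-/- liver than in any WT liver of the same age, at 5 and at 14 weeks, on the brightest of its 5 probe sets. The 4 WT livers at 5 weeks (animals 2, 44, 45 and 90) read 9.98, 15.4, 16.8 and 14.2. The 4 Trim24-/- livers (animals 1, 6, 8 and 37) read 40.2, 78.9, 23.7 and 37.9. Animal 6 was the highest and animal 8 the lowest of the null livers, and the groups did not overlap. Livers of both groups at 14 weeks stood in the same order. The 5 WT livers read 7.92, 1.21, 11.8, 11.7 and 4.9. The 5 Trim24-/- livers read 25.7, 81.4, 31.1, 20.6 and 48.6. WT livers at 14 weeks were all below 16, at the 3.93rd to 35.2nd percentile of the probe sets on their arrays, and the null livers ranked from the 47.1st to the 74.1st.

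The Trim24-/- minus WT difference for Afp was 0.96 ± 0.22 (SE) at 5 weeks (1.94-fold, limma, adjusted p = 0.0825) and 1.22 ± 0.25 at 14 weeks (2.33-fold, adjusted p = 0.0875). Neither passed the threshold on its own, and the interaction of genotype and age was 0.26 ± 0.35 (adjusted p = 0.953). At 5 weeks Afp passed after quantile normalisation of the arrays (0.91 ± 0.18, adjusted p = 0.0458), and at 14 weeks when all 22 arrays shared 1 fit (1.22 ± 0.23, adjusted p = 0.0118). A comparison chosen after these values were seen, the mean of both ages, gave 1.09 ± 0.17 (95% confidence interval 0.73 to 1.45, 9 of 9 null livers above the WT livers of their age, limma, adjusted p = 0.000964). That call was kept under all 32 alternatives that gave Afp a value, at adjusted p between 0.000519 and 0.0154. Because the comparison was picked for Afp and H19, its p is no independent evidence. Of all genes, 1.59% were called in it.

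**Figure D1:**
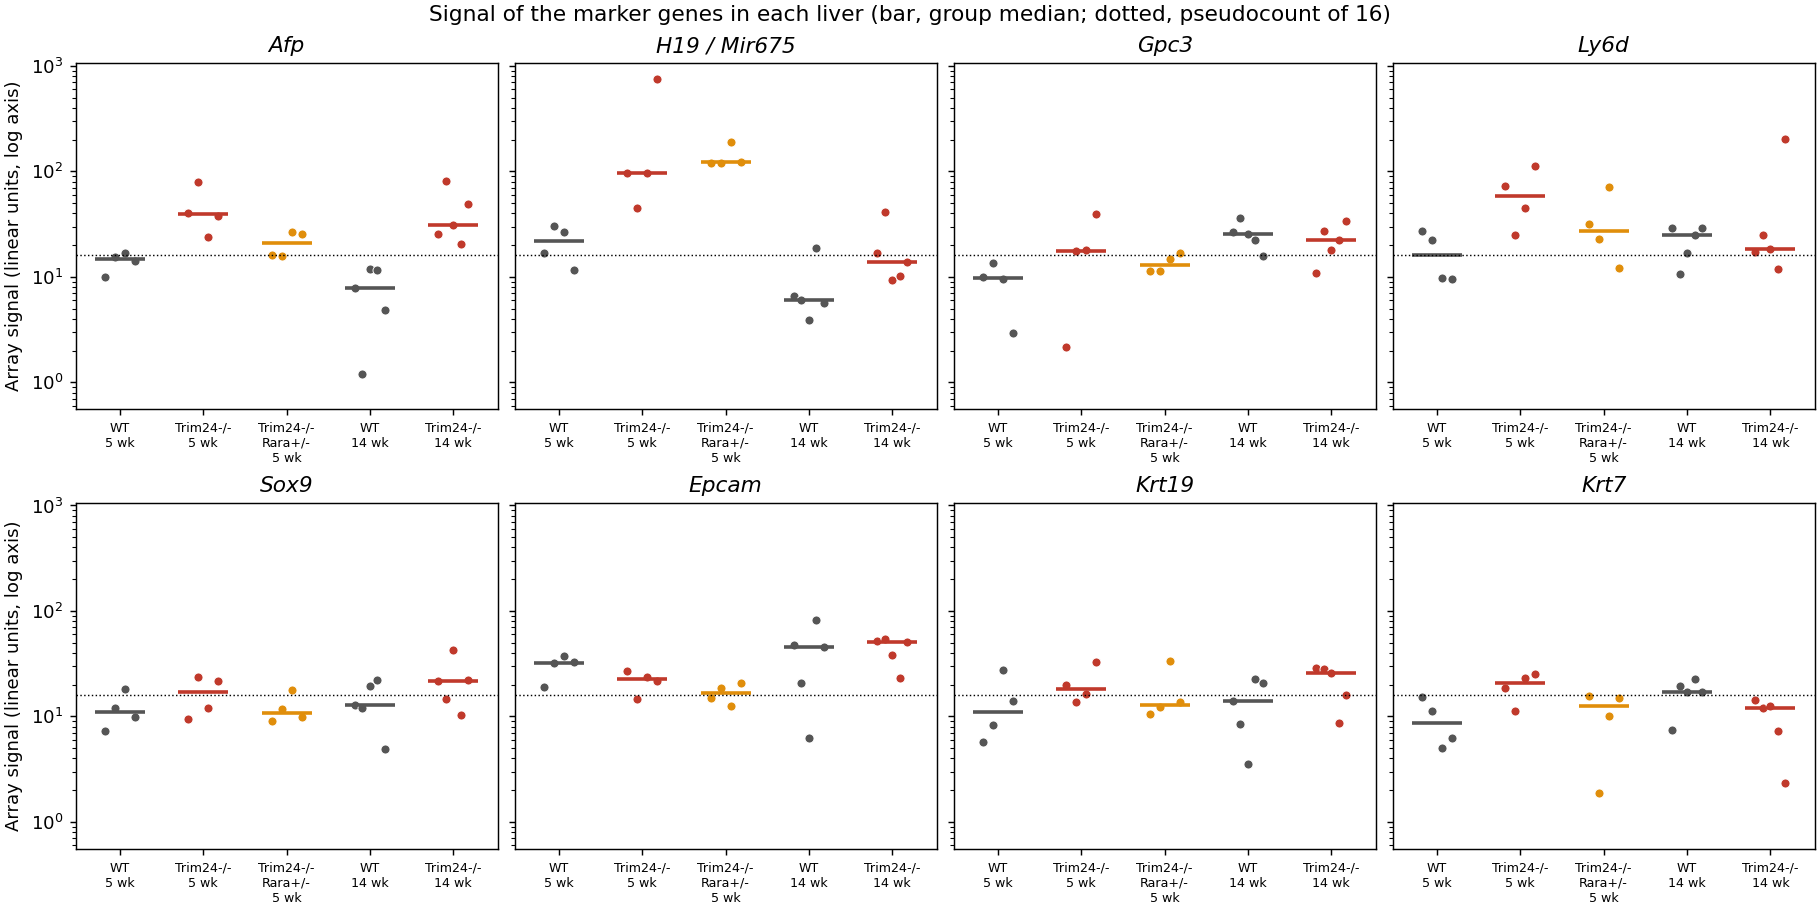
Signal of the 8 measured members in each of the 22 livers (log axis, linear array units, 1 point per animal, bar at the group median, dotted line at 16). Afp points of Trim24-/- livers lie above the WT points at both ages, H19 points of both null genotypes lie above WT at 5 weeks, and the ductal markers in the lower panels overlap between genotypes.

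The other Afp probe sets were dimmer and gave smaller estimates. On the second the WT livers at 5 weeks read 4.16 to 20.8 and the Trim24-/- livers 13.4 to 52.8, a difference of 0.55 ± 0.23 that overlapped. On the third the WT livers read 6.24 to 12.6 and the null livers 13.5 to 21.4, which did not overlap (0.39 ± 0.15). The fourth and the fifth read above 16 on 3 and 0 of 22 arrays and differed by -0.01 ± 0.23 and 0.02 ± 0.10. At 14 weeks the estimates of these 4 probe sets ran from 0.21 to 0.55, all with overlapping groups. Adjusted over all 45101 probe sets, none of the 15 member probe sets was called at either age, where 0.233% of probe sets were called at 5 weeks and 0.124% at 14 weeks, and the smallest adjusted p was that of the brightest Afp probe set, 0.129 and 0.149.

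**Figure D2:**
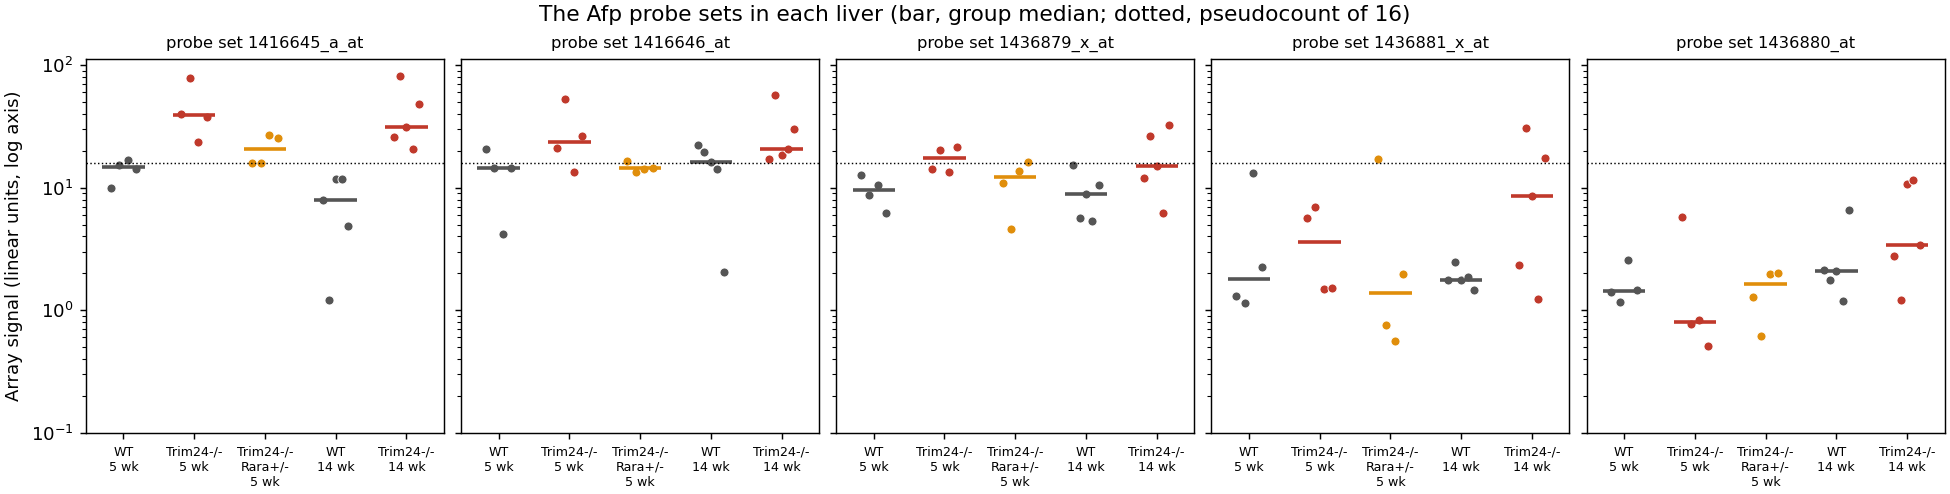
Signal of the 5 probe sets listed for Afp in each liver (log axis, linear array units, 1 point per animal, bar at the group median, dotted line at 16), ordered from the brightest on the left. WT and Trim24-/- points are apart at both ages on the brightest, and the panels on the right lie mostly below 16 in all groups.

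No gene on the lists of those that stand beside Afp or act on it was called between genotypes. Of the 2 measured members of the albumin family, which share its chromosomal cluster, none was called in any genotype comparison. Afm (afamin) differed by -0.03 ± 0.10 at 5 weeks and -0.02 ± 0.11 at 14 weeks. Of 16 measured transcription factors that act on Afp or on hepatocyte identity, none was called either, where 0.599% of all genes were called at 5 weeks and 0.242% at 14 weeks. At such shares the lack of a call in a short list says little. At 5 and 14 weeks 1 and 3 of the 16 had an unadjusted p under 0.05, against 10.8% and 8.23% of all genes. For the interaction of genotype and age 4 did, against 6.4%. The mean level of this list ran from 8.36 to 8.72 in Trim24-/- and 8.44 to 8.84 in WT livers at 5 weeks, which overlapped, and from 8.81 to 8.95 and 8.55 to 8.77 at 14 weeks, which did not. Zhx2 and Zbtb20, both postnatal repressors of Afp in mouse liver, differed by 0.17 ± 0.12 and -0.01 ± 0.26 at 5 weeks and by 0.12 ± 0.12 and 0.13 ± 0.23 at 14 weeks, intervals that all included 0. The Zhx2 interval at 5 weeks ran from -0.08 to 0.42 and that of Zbtb20 from -0.58 to 0.55.

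Removing 1 Rara allele from Trim24-/- mice went with Afp signals between those of the other genotypes on the brightest probe set. The 4 Trim24-/- Rara+/- livers (animals 54, 66, 73 and 82) read 16, 15.8, 26.7 and 25.6. They overlapped with WT at the low end and with Trim24-/- animal 8 at the high end. The difference was 0.29 ± 0.22 from WT (adjusted p = 0.827) and -0.66 ± 0.22 from Trim24-/- (adjusted p = 0.236), so neither passed in limma. The second comparison shares its Trim24-/- arrays with the test of Trim24 loss, so a high Trim24-/- group enters both. On the second Afp probe set the Trim24-/- Rara+/- livers read 13.5 to 16.5, inside the WT range (0.09 ± 0.23 from WT). On the third they read 4.6 to 16.1 (0.09 ± 0.15 from WT).

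H19 read high in both null genotypes at 5 weeks. WT livers read 16.9, 30.4, 26.9 and 11.7. Trim24-/- livers read 96, 45.4, 97.2 and 754, and Trim24-/- Rara+/- livers 120, 121, 190 and 123. No liver of either null genotype overlapped with WT, and animal 37 stood far above all others, at the 95th percentile of its array. The differences from WT were 2.09 ± 0.57 (4.26-fold) in Trim24-/- and 2.05 ± 0.57 (4.14-fold) in Trim24-/- Rara+/- livers. With that spread neither passed in limma, at adjusted p = 0.159 and 0.338. Both comparisons share the WT arrays.

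The error of H19 was wide with animal 37 in the fit. Without it the differences from WT were 1.33 ± 0.25 (adjusted p = 0.0359) and 2.05 ± 0.23 (adjusted p = 0.00384), and both were called. Fitted on the 8 arrays of WT and Trim24-/- Rara+/- alone the latter was 2.05 ± 0.20 (adjusted p = 0.00332), and with all 22 arrays in the fit the former was 2.09 ± 0.47 (adjusted p = 0.0343). With the closely correlated animals 54, 66 and 82 averaged as 1 replicate, which leaves fewer arrays, and animal 37 left out, a setting chosen after the values were seen, adjusted p was 0.097 for 1.33 ± 0.27 and 0.0863 for 2.20 ± 0.30. Over 25 alternatives each, the estimates ran from 1.33 to 2.68 for Trim24-/- and from 1.24 to 2.69 for Trim24-/- Rara+/-, and 2 of 25 gave a call in each. Between the null genotypes H19 differed by -0.04 ± 0.57, a 95% interval of -1.28 to 1.20 that leaves either direction possible, and the estimate was 0.72 without animal 37.

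At 14 weeks H19 was dim. WT livers read 6.58, 6.05, 3.92, 18.6 and 5.66, and Trim24-/- livers 16.7, 41.3, 9.38, 10.2 and 13.8. Only the highest WT liver reached into the range of the null livers. The difference was 0.46 ± 0.22 (1.38-fold, limma, adjusted p = 0.63), and the interaction of genotype and age, -1.63 ± 0.64, did not pass (adjusted p = 0.698). The mean of both ages, chosen after the values were seen, was 1.28 ± 0.32 (adjusted p = 0.0416), a call that was kept in 12 of 33 alternatives.

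Animal 37 also stood apart in markers of other cell types. Its stellate cell and fibroblast list (10 genes) had a mean of 8.69, against 7.55 to 8 in the other 3 Trim24-/- livers and 7.41 to 7.58 in WT. The macrophage list (14 genes) had 8.84, against 8.06 to 8.52 in the other 3 Trim24-/- livers and 7.61 to 8.23 in WT. The mesothelial list (5 genes) had 5.36, against 4.75 to 4.98 and 4.41 to 4.84. The list of other bile duct markers (18 genes) had 5.85, against 5.23 to 5.37 and 5.31 to 5.47. Trim24-/- Rara+/- animal 73 also lay above every 5-week WT liver in these lists. It was at 8.53 (macrophage), 5.13 (mesothelial), 5.6 (other bile duct) and 7.87 (stellate). In the stellate list all livers of its group lay above WT, at 7.71 to 7.93. Among the members animal 37 was the highest of its group for H19, Gpc3, Ly6d, Krt19 and Krt7, but not for Afp. The part of these markers in its H19 level was not tested. Without this animal the H19 groups still did not overlap.

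**Figure D3:**
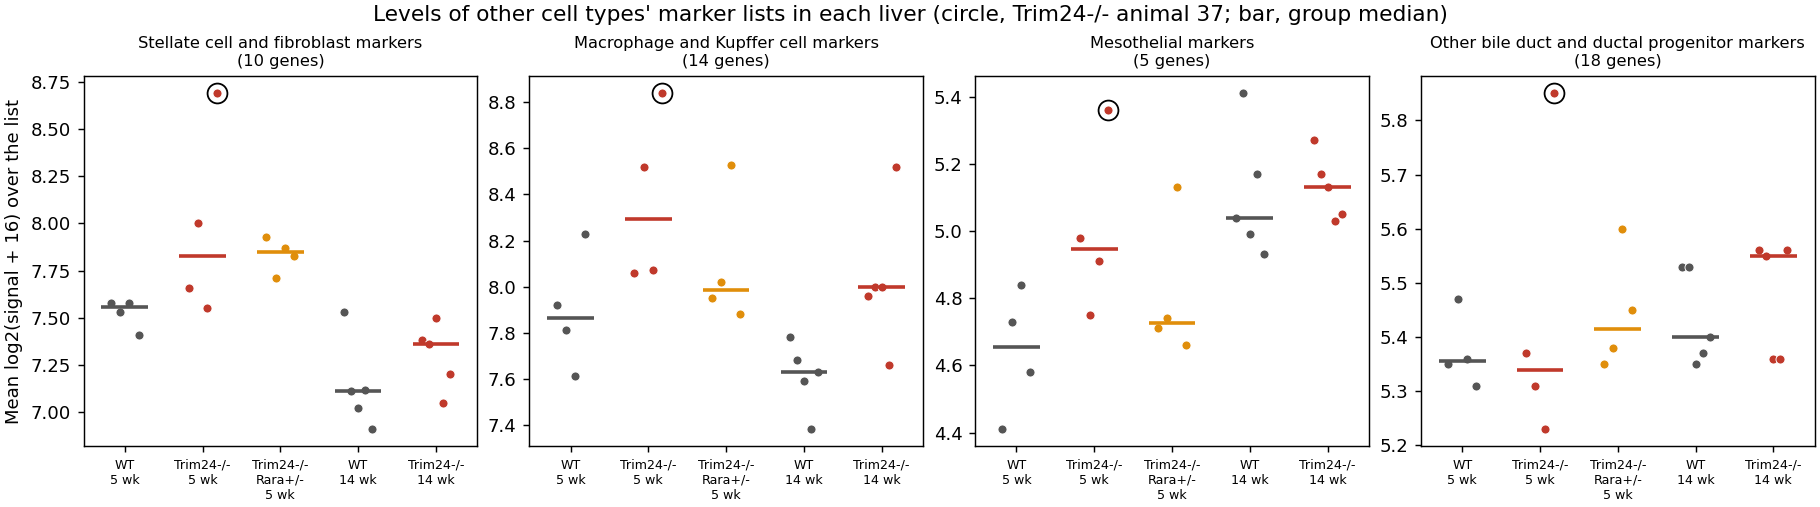
Mean log2(signal + 16) of 4 marker lists in each liver (1 point per animal, bar at the group median, circle around Trim24-/- animal 37). Animal 37 is the highest of the 12 livers at 5 weeks in each list, at 8.69 for stellate cell and 8.84 for macrophage markers.

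Of 19 other imprinted genes measured, 1 was called for Trim24 loss at 5 weeks, where 0.599% of all genes were: Phlda2, an imprinted gene that restrains placental growth. It read 8.43 to 12.4 in Trim24-/- and 1.54 to 4.75 in WT livers (0.45 ± 0.09, adjusted p = 0.0469), and 1.42 to 2.54 in Trim24-/- Rara+/- livers, lower than in Trim24-/- by -0.54 ± 0.09 (adjusted p = 0.0461), where H19 stayed high. Phlda2 also rose at 14 weeks, from 1.2 to 11.3 in WT to 12.3 to 24.5 in Trim24-/- livers (0.85 ± 0.15, adjusted p = 0.0375). All of its signals at 5 weeks lay below 16. Igf2, the growth factor gene that shares an enhancer region with H19 on the opposite parental allele, read 1.73 to 26.9 in WT and 1.52 to 24.0 in Trim24-/- livers, a difference of 0.02 ± 0.33 (adjusted p = 0.99) with an interval of -0.69 to 0.73. The list's median was -0.01 at 5 weeks, the same as that of all genes, and 0.13 at 14 weeks, where that of all genes was 0. At 14 weeks 7 of the 19 had an unadjusted p under 0.05, against 8.23% of all genes, and 1 of them, Phlda2, was called.

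Gpc3, a cell surface glypican that is silent in healthy adult hepatocytes and a diagnostic marker of hepatocellular carcinoma, did not separate the genotypes. At 5 weeks WT livers read 9.97, 13.5, 9.56 and 2.94 and Trim24-/- livers 2.14, 17.4, 18 and 39.7, so that the lowest and the highest liver were both null. The difference was 0.41 ± 0.26 (adjusted p = 0.612), and 0.15 without animal 37. Trim24-/- Rara+/- livers read 11.3 to 16.9, and at 14 weeks the genotypes overlapped, at 15.6 to 36.3 in WT and 10.8 to 33.8 in Trim24-/-. None of the 5 other glypicans was called in a genotype comparison.

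Ly6d, a GPI-anchored surface protein of the Ly6 family, read higher in most Trim24-/- livers at 5 weeks but the groups overlapped. WT livers read 27.3, 22.4, 9.71 and 9.48 and Trim24-/- livers 72.7, 25.1, 44.7 and 112. Only animal 6 fell within the WT range. The difference was 1.18 ± 0.37 (SE, 2.26-fold, limma, adjusted p = 0.236). Trim24-/- Rara+/- livers read 31.7, 22.7, 70.7 and 12.1, and differed by 0.51 ± 0.37 from WT and by -0.66 ± 0.37 from Trim24-/-, with neither passing.

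At 14 weeks a single liver carried the Ly6d signal. The highest Trim24-/- liver read 203, the other 4 null livers 11.9 to 25.2, and WT livers 10.6 to 29.1. The difference was 0.40 ± 0.47 with this liver and -0.14 without it. In that liver Afp was 48.6, the second highest of its group, the macrophage list had a mean of 8.52 against 7.66 to 8 in the other null livers, and the list of T, NK and B cell markers was at 5.23 within a group range of 5.04 to 5.26. Their part in its Ly6d level was not tested. Among 13 other genes of the Ly6 family, 1 was called at 5 weeks (0.599% of all genes) and none at 14 weeks (0.242%). The called gene was Ly6e, an interferon-inducible member. It rose from 2040 ± 149 (SD, n = 4) to 5910 ± 1660 (1.49 ± 0.22, limma, adjusted p = 0.0157) and read 2770 ± 940 in Trim24-/- Rara+/- livers. At 5 and 14 weeks 4 and 2 of the 13 had an unadjusted p under 0.05, against 10.8% and 8.23% of all genes. In the mean of both ages, chosen after the values were seen, Ly6e was called higher and Ly6g6d lower (1.59% of all genes called).

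The 4 ductal markers measured overlapped between Trim24-/- and WT at both ages. Krt7, a keratin of bile duct cells, read 15.3, 11.2, 5 and 6.3 in WT and 18.6, 11.3, 22.9 and 25.3 in Trim24-/- livers at 5 weeks. All null livers but animal 6 lay above every WT liver. The difference was 0.48 ± 0.20 (1.40-fold, adjusted p = 0.395), Trim24-/- Rara+/- livers read 1.9 to 15.5, and at 14 weeks the sign was opposite, with 2.33 to 14.3 in Trim24-/- and 7.44 to 22.4 in WT livers (-0.35 ± 0.17, adjusted p = 0.625). The interaction of genotype and age for Krt7 was -0.83 ± 0.27 (adjusted p = 0.507) and did not pass.

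Krt19, the keratin that marks ducts and progenitor cells most widely, read 5.78, 8.36, 27.6 and 13.9 in WT and 19.9, 13.8, 16.3 and 32.9 in Trim24-/- livers at 5 weeks. WT animals 45 and 90 lay inside the range of the null livers. The difference was 0.32 ± 0.25 (adjusted p = 0.693), and at 14 weeks 0.34 ± 0.22 (adjusted p = 0.746), with 3.53 to 22.7 in WT and 8.67 to 28.8 in Trim24-/- livers.

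Sox9, the transcription factor of duct and progenitor cells, read 7.34 to 18.4 in WT and 9.48 to 23.9 in Trim24-/- livers at 5 weeks on its brightest probe set (0.22 ± 0.17, adjusted p = 0.697), and 4.89 to 22.2 against 10.3 to 42.4 at 14 weeks (0.31 ± 0.22, adjusted p = 0.77). Its other probe sets did not follow a common sign, at 0.06 ± 0.28 and -0.17 ± 0.17 at 5 weeks and 0.12 ± 0.20 and -0.38 ± 0.17 at 14 weeks.

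Epcam, the adhesion molecule of ductal epithelium, had the only member estimate below 0 for Trim24-/- against WT at 5 weeks, taking 1 probe set per gene. On its brighter probe set WT livers read 19.2, 32.2, 37.3 and 32.6, Trim24-/- livers 26.9, 14.5, 23.7 and 21.6, and Trim24-/- Rara+/- livers 14.9, 18.6, 12.6 and 20.6. WT animal 2 was the 1 WT liver inside the range of the others. The differences from WT were -0.29 ± 0.15 (adjusted p = 0.509) and -0.49 ± 0.15 (adjusted p = 0.402). The second Epcam probe set had the other sign for Trim24-/- (0.21 ± 0.30), and at 14 weeks the pair gave 0.22 ± 0.34 and 0.71 ± 0.30, so the probe sets of this gene did not give 1 direction.

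Over the 8 measured members, none was called between Trim24-/- and WT at 5 weeks (limma), where 0.599% of all genes were, and 4 (Afp, H19, Ly6d and Krt7) had an unadjusted p under 0.05, against 10.8% of all genes. In 2 of 8, Afp and H19, every null liver was above every WT liver, which held for 3% of all genes. The members' median difference was 0.44 and that of all genes -0.01. The median of the 4 tumour markers was 1.07 and that of the 4 ductal markers 0.27.

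For Trim24-/- Rara+/- against WT none of 8 was called (0.055% of all genes), 2 had an unadjusted p under 0.05 (7.44% of all genes), H19 higher and Epcam lower, and 1, H19, was higher in every liver (1.99%). Against Trim24-/-, none of 8 was called (0.143%), 2 (Afp and Krt7) had an unadjusted p under 0.05 (11.5%), and all 8 estimates lay below 0, between -0.66 and -0.04. The median of all genes was -0.01. These estimates share the same Trim24-/- arrays, so their signs are not independent. Without animal 37, H19 was at 0.72, Gpc3 at 0.1 and Krt19 at -0.01. At 14 weeks none of 8 was called (0.242%), 1 had an unadjusted p under 0.05 (8.23%), and that 1, Afp, was higher in every null liver (1.07%). No member passed for the interaction of genotype and age (0.033% of genes called), where 2, H19 and Krt7, had an unadjusted p under 0.05 (6.4%).

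**Figure D4:**
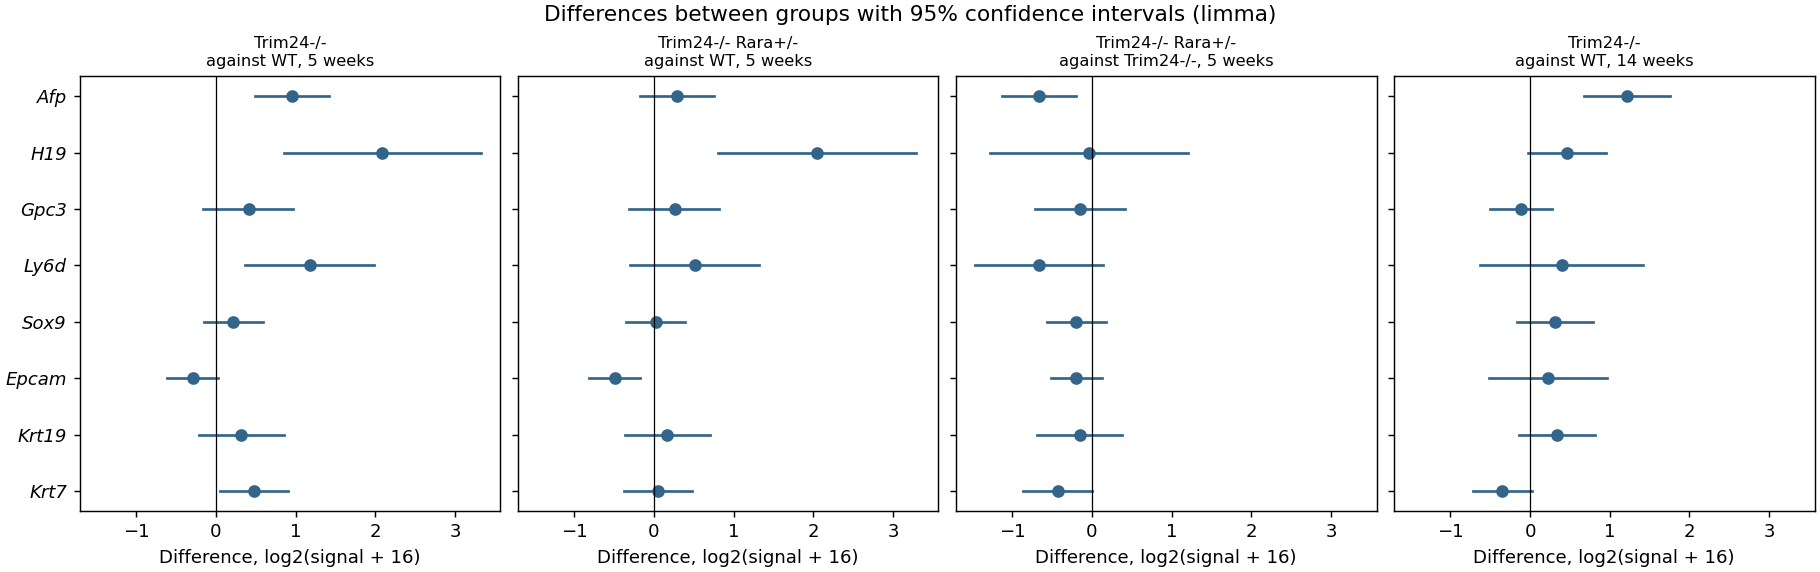
Difference between groups for the 8 measured members on the log2(signal + 16) scale (point, limma estimate; line, 95% confidence interval) in 4 genotype comparisons. Intervals of Afp, H19, Ly6d and Krt7 exclude 0 for Trim24-/- against WT at 5 weeks, and that of Afp, at 1.22, at 14 weeks. For Trim24-/- Rara+/- those of H19 and Epcam exclude 0 against WT. Against Trim24-/- that of Afp does, and that of Krt7 ends at 0 after rounding. The intervals are not adjusted for the number of genes.

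Calls among other genes of the same biology are set beside the share of all genes called. For Trim24 loss that share was 0.599% at 5 weeks and 0.242% at 14 weeks, so no call in a short list says little. Of 18 measured markers of bile ducts and ductal progenitors beyond the members, none was called in any of the 4 genotype comparisons within an age. At 5 weeks 1 had an unadjusted p under 0.05 (10.8% of all genes), with a list median of 0.07. Of 17 genes of the Notch and Hippo-YAP pathways, which direct the ductal fate, of 4 other simple epithelial keratins and of 11 genes of the Spp1 family and its receptors, none was called either. In these lists 1, 2 and 1 had an unadjusted p under 0.05 for Trim24 loss at 5 weeks (10.8% of all genes). At 14 weeks 0, 0 and 1 did (8.23%). For Trim24-/- Rara+/- against Trim24-/- 4, 2 and 0 did (11.5%). Of 18 other fetal liver and tumour genes, 1 was called at 5 weeks and none at 14 weeks. The called gene was Anxa2, a membrane-binding annexin raised in hepatocellular carcinoma. It read 150, 141, 126 and 150 in WT and 302, 211, 196 and 355 in Trim24-/- livers, which did not overlap (0.80 ± 0.16, adjusted p = 0.0452). In Trim24-/- Rara+/- livers it read 154 to 178, and at 14 weeks the genotypes overlapped (0.20 ± 0.20). In this list 4 genes at 5 weeks and 3 at 14 weeks had an unadjusted p under 0.05, against 10.8% and 8.23% of all genes. Pkm, another gene of this list, was called in the mean of both ages, chosen after the values were seen, where 1.59% of all genes were.

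Of 14 macrophage markers, 1 was called at 5 weeks (0.599% of all genes) and none at 14 weeks (0.242%). That 1, Mpeg1, a pore-forming protein of macrophages, read 308, 256, 233 and 377 in WT and 749 to 1360 in Trim24-/- livers at 5 weeks (1.69 ± 0.30, adjusted p = 0.0275). At 5 and 14 weeks 4 and 8 of the 14 had an unadjusted p under 0.05, against 10.8% and 8.23% of all genes. The list medians were 0.35 and 0.43, against -0.01 and 0 for all genes. In the mean of both ages, chosen after the values were seen, 3 were called (Mpeg1, Marco and Cd5l), against 1.59% of all genes. The list's mean level ran from 7.61 to 8.23 in WT, 8.06 to 8.84 in Trim24-/- and 7.88 to 8.53 in Trim24-/- Rara+/- livers, and at 14 weeks from 7.38 to 7.78 in WT and 7.66 to 8.52 in Trim24-/- livers, so that the genotypes overlapped at both ages. The stellate list ran from 7.41 to 7.58 in WT and 7.55 to 8.69 in Trim24-/- livers at 5 weeks. All Trim24-/- Rara+/- livers, at 7.71 to 7.93, lay above WT. At 14 weeks it ran from 6.91 to 7.53 in WT and 7.05 to 7.5 in Trim24-/- livers. Its medians for Trim24 loss were 0.45 and 0.22 at 5 and 14 weeks. None of its 10 genes was called, and 2 and 4 had an unadjusted p under 0.05 in limma. The part of either list in the members' levels was not tested.

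Between WT livers of 14 and 5 weeks, 1 of 8 members was called, where 28.3% of all genes were. Gpc3 was higher at 14 weeks (0.72 ± 0.23, adjusted p = 0.0235) and the ages did not overlap, as for 13.1% of all genes. The call was lost after quantile normalisation (0.41 ± 0.23, adjusted p = 0.22) or centring of each array (0.48 ± 0.22, adjusted p = 0.103), which move the median of all genes from 0.13 to 0.01 and -0.11, and without the lowest WT liver at 5 weeks (0.60, adjusted p = 0.0849) or the highest at 14 weeks (0.63, adjusted p = 0.061). Afp and H19 had estimates of -0.37 ± 0.25 and -0.63 ± 0.45, neither called. Age cannot be told apart here from the brightness of the arrays (medians of 12.6 to 16.1 at 5 weeks and 19.7 to 25.9 at 14 weeks) or from the sex-linked pattern.

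Across animals, with group means removed, 2 of 15 pairs of the 6 members above a mean of 5 passed in a permutation test within groups (n = 22, 100000 resamples, two-sided). Epcam and Krt19 correlated at Pearson r = 0.62 and Spearman rho = 0.64 (permutation p = 0.00315 and 0.00447, adjusted p = 0.0236 and 0.0335 over the 15 pairs), and r was 0.50 without the 2 animals farthest from the Epcam median. Within ages r was 0.28 at 5 weeks and 0.86 at 14 weeks. H19 and Krt19 correlated at r = 0.53 and rho = 0.58 (permutation p = 0.00202 and 0.00437, adjusted p = 0.0236 and 0.0335), with r = 0.53 without the 2 farthest animals, 0.57 at 5 weeks and 0.56 at 14 weeks. No pair with Afp passed, at r between 0.06 and 0.21; for Afp and H19 r was 0.06 over all animals, -0.24 at 5 weeks and 0.71 at 14 weeks. Values on 1 array share its brightness and its mix of cells, whose part was not tested.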

How the data were processed

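Liver RNA of 22 mice was hybridised to 1 Affymetrix array each, after successive rounds of cRNA amplification per the labels' protocols. The authors' deposited values are linear intensity per probe set (45101 of them), with a mean of 100.001 on every array after trimming 2% at each end, so arrays had been scaled. Which software did this is not given in the sources used. Groups and animal numbers came from the labels, with 1 animal per array. Gene names came from the platform annotation (34958 probe sets with 1 symbol, 932 with several, 9211 unlisted). The probe set with the highest mean stood for a gene. H19 has only a probe set shared with Mir675, which was used as an exception.

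Values were tested as log2(signal + 16) with limma 3.58.1 in R 4.3.3, with Benjamini-Hochberg adjustment over 18195 genes: 1 fit of 12 arrays at 5 weeks, 1 of 10 at 14 weeks, and 1 of all 22 for interaction and age. Permutation tests used numpy 2.4.6 and scipy 1.17.1, and plots matplotlib 3.10.9. Scripts were tested on simulated data. The members and lists were chosen with earlier results of these data known. Named beside the members are up to 3 called genes per list and comparison with the smallest adjusted p, and the checks Trim24, Rara, Xist and Eif2s3y; Igf2 and Zbtb20 were named after their values were seen. Genes most like a member were to be named above a mean of 6, which no member reached. Alternatives were other normalisations, pseudocounts (1 and 64), filters, probe set choices, variance models, array weights, sets of arrays, and each array left out. The number of arrays limits the precision.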

Additional observations from a re-analysis of the deposited data

Results flagged for a closer look

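In 8 of 75 groups tested (15 probe sets in 5 groups), 1 animal lay farther from the rest, on the log2(signal + 16) scale, than Dixon's 95% critical value allows, and about 1 in 20 is expected by chance. On the brightest probe sets these were Ly6d in 1 Trim24-/- liver at 14 weeks (203), H19 in Trim24-/- Rara+/- animal 73 (190) and H19 in 1 WT liver at 14 weeks (18.6). On the dimmer probe sets of Afp they were the fifth in brightness in Trim24-/- animal 1 at 5 weeks (5.79) and in 1 WT liver at 14 weeks (6.55), and the fourth in WT animal 45 (13.1) and in Trim24-/- Rara+/- animal 54 (17.1). On another Sox9 probe set it was WT animal 45 at 5 weeks (27.6). All were the highest of their group. H19 in Trim24-/- animal 37, at 754, did not pass the limit on this scale.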

How the results depend on the processing

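For the 8 members, 1365 of 1463 values under the alternatives kept their direction and side of the threshold, 66 changed sign, 25 lost and 7 gained a call; the cause was not tested. Alternatives were run for the members and for counts over all genes, not for genes of the lists. Signals near 16 limit what the arrays can resolve. No paired analysis was possible because the groups share no replicate numbers. Averaging close arrays was chosen after seeing the data.

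Members called at 5 weeks were 1 of 8 for Trim24-/- against WT after quantile normalisation (Afp) and with all 22 arrays in the fit (H19), and 1 for Trim24-/- Rara+/- against WT with only the compared groups in the fit (H19). At 14 weeks 1 was called with all 22 arrays (Afp). Between WT ages 0 were called after quantile normalisation, after centring, and among genes above the median level, where Gpc3 is not tested, and 2 (Gpc3 and H19) with only the compared groups. For the mean of both ages 1 was called after quantile normalisation, with a pseudocount of 64, among genes above the median level, where Afp is not tested, with only the compared groups, and with either set of close arrays averaged.

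All genes called for Trim24-/- against WT at 5 weeks numbered 109, and 34 with a pseudocount of 1, 19 with only the compared groups, 28 with animals 54, 66 and 82 averaged, 59 with animal 37 also left out, and 21 with animals 1 and 8 averaged. For Trim24-/- Rara+/- against WT they numbered 10, and 19 above the median level, 18 with array weights, 31 with all 22 arrays, 24 with only the compared groups, and 5, 5 and 6 under these averagings. For Trim24-/- Rara+/- against Trim24-/- they numbered 26, and 14 after quantile normalisation, 0 and 55 with pseudocounts of 1 and 64, 102 above the median level, 52 with a variance trend, 325 with array weights, 101 with all 22 arrays, 5 with only the compared groups, and 0, 1 and 5 under the averagings. At 14 weeks they numbered 44, and 28 with a pseudocount of 1, 74 above the median level and 94 with all 22 arrays. Between WT ages they numbered 5147, and 3045 above the median level.

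The following estimates changed sign. For Trim24-/- Rara+/- against WT, Sox9 was -0.07 over the mean of its probe sets, and Krt7 was 0 with a pseudocount of 1 and with array weights. Against Trim24-/-, H19 was 0.01 after centring, 0.02 with a pseudocount of 1, 0.06 with array weights, 0.1 with animals 54, 66 and 82 averaged and 0.87 with animal 37 also left out. Under these averagings Krt19 was 0.05 and 0.2, and Gpc3 was 0.12 under the second. The interaction was -0.02 for Sox9 (mean of probe sets) and -0.03 for Krt19 (quantile). Between WT ages, quantile normalisation and centring gave -0.08 and -0.04 for Ly6d, -0.21 and -0.14 for Sox9, -0.09 and -0.11 for Epcam, and -0.29 and -0.24 for Krt19; Epcam was -0.11 over the mean of its probe sets and Krt19 -0.01 with a pseudocount of 1. For the mean of ages Epcam was 0.21 over the mean of its probe sets and 0.07 with array weights.

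With each array left out in turn, members called ran from 0 to 1 for Trim24-/- against WT and for Trim24-/- Rara+/- against WT at 5 weeks (1 without animal 37 in both), from 0 to 1 between WT ages (0 without the lowest 5-week or the highest 14-week WT liver for Gpc3) and from 1 to 2 for the mean of ages, where 16 of the arrays each ended the H19 call. All genes called ran from 12 to 137 for Trim24-/- against WT at 5 weeks, from 6 to 26 for Trim24-/- Rara+/- against WT, from 0 to 101 against Trim24-/-, from 28 to 39 at 14 weeks and from 5 to 11 for the interaction. Estimates that changed sign ran from -0.08 to 0.12 (Sox9), -0.04 to 0.37 (Krt19) and -0.04 to 0.23 (Krt7) for Trim24-/- Rara+/- against WT, from -0.49 to 0.72 (H19) and -0.44 to 0.1 (Gpc3) against Trim24-/-, and from -0.22 to 0.01 (Gpc3), -0.14 to 0.6 (Ly6d) and -0.07 to 0.46 (Epcam) at 14 weeks. They ran from -0.07 to 0.21 (Sox9) and -0.19 to 0.16 (Krt19) for the interaction, from -0.11 to 0.42 (Epcam) and -0.13 to 0.21 (Krt19) between WT ages, and from -0.18 to 0.08 (Epcam) for the mean of ages.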
